A study of Mus musculus with 20 samples.

Results

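The genes described here encode the molecular chaperones of the cell and the machinery that carries new proteins into the endoplasmic reticulum (ER) and folds them there. Members were taken by gene symbol: the heat shock protein families, the Dnaj (J protein) family, the Cct subunits of the cytosolic chaperonin, the Pdia and Erp disulphide isomerases with P4hb, the lectin chaperones Calr and Canx, the Sec61 to Sec63 translocon, the Ssr, Srp and Spcs families, the ribophorins Rpn1 and Rpn2, and the prolyl isomerases of the Fkbp and Ppi families. Of 11552 array elements, 100 carried such a symbol as their single symbol, and they stood for 65 genes. All 100 had at most 3 missing values and were tested, and 99 had none. A further 12 elements carried a member symbol among several symbols and were not used. Prostates of males of 5 inbred mouse strains, DBA/2, BALB/c, FVB/NJ, 129X1/SvJ and C57BL/6J, were compared at 8 to 9 weeks of age, and no treatment or transgene is named for any of them. Each strain was measured as 4 pools of 3 mice, 12 mice in all, and each pool combined RNA of all 4 prostate lobes, dorsal, lateral, ventral and anterior. The pool was amplified and hybridized to a spotted 2-colour cDNA array against 1 common reference made of RNA from all samples. The strains C57BL/6J, 129X1/SvJ and FVB/NJ came from one supplier and BALB/c and DBA/2 from another, so that supplier and strain cannot be told apart.

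Chaperones of the Hsp70 and Hsp90 families bind unfolded stretches of other proteins and release them in cycles of ATP hydrolysis, which J proteins stimulate. In the ER, Hspa5 (BiP) and Hsp90b1 (GRP94) do this for secreted proteins, calnexin (Canx) and calreticulin (Calr) hold those that carry a sugar tag, and disulphide isomerases form and rearrange their cysteine bridges. The prostate is a secretory gland, and its luminal cells pass large amounts of protein through this route. Many ER chaperone genes are switched on together by the unfolded protein response, through a promoter motif called the ER stress response element, whereas cytosolic and mitochondrial chaperones respond to heat shock factor through the heat shock element.

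Promoter sequences show which members share these elements. Windows of 300 bases, from 250 before to 50 after the annotated start, were at hand for 51 of the 65 member genes (RefSeq, mouse build GRCm38.p6). The other 14 were not searched: Cct4, Dnajc5, Erp29, Hsp90aa1, Hspa8, Hspa9, Hspa13, Ppid, Ppie, Sec61a1, Spcs3, Srp19, Srp68 and Ssr2. The ER stress response element was searched as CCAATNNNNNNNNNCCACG on both strands. It was in the windows of 5 members, Calr, Canx, Dnajc3, Hsp90b1 and Hspa5, and in those of 0.137% of all 27025 gene symbols with a window. The heat shock element was searched as GAANNTTCNNGAA on both strands and was in the windows of Dnajb6, Hspe1 and Sec62 and of 0.662% of all symbols. Its shorter form GAANNTTC, which the longer one contains, was in the windows of 11 members and of 9.04% of all symbols. The stretches below are those of the ER stress response element, because the same 5 genes are set side by side further on, and that of Hspe1, a member that differed between strains. Capitals mark the fixed letters of the motif, each stretch reads 5′ to 3′ along its gene, and a match is a match of letters only.
Hspa5, chr2:34771995-34772073, plus strand: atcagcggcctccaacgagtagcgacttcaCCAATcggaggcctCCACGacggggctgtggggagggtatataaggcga
Hsp90b1, chr10:86705503-86705686, minus strand, with 1 match in each orientation: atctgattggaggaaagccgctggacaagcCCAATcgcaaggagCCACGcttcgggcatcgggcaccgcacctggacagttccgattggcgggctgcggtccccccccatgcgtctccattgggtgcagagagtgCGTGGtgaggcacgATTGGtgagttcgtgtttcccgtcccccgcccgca
Calr, chr8:84847045-84847123, minus strand, reverse orientation: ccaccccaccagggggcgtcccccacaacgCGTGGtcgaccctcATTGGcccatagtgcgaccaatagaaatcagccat
Canx, chr11:50325770-50325848, minus strand: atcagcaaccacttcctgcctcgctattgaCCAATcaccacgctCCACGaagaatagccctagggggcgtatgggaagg
Dnajc3, chr14:118937797-118937875, plus strand: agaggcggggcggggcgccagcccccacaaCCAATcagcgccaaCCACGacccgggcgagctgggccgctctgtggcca
Hspe1, chr1:55088029-55088106, plus strand, with overlapping matches in both orientations: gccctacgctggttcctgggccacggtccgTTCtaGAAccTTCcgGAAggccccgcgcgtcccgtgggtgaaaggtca

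The values are log2 ratios of a pool over the reference, so they give differences between pools and not how abundant a transcript is. Column medians ran from -0.01 to 0.01, and the lowest correlation between arrays of different strains labelled with the same dye was -0.12. The array of 129X1/SvJ pool 4 stood apart: the spread of its values was the widest of the 20 (median absolute deviation 0.43, against 0.16 to 0.31 on the others), and 5.71% of its elements lay at or below -1, against at most 2.65% elsewhere. Markers of other tissues moved between strains. Of 7 measured seminal vesicle genes 3 passed the test over the strains, and the mean over the list lay between 0.44 and 1.11 in the BALB/c pools but between -2.76 and -2.22 in the DBA/2 pools. In the other lists the numbers past the test were 4 of 11 luminal, 0 of 2 basal, 0 of 7 smooth muscle, 1 of 9 fibroblast and matrix, 0 of 4 endothelial, 2 of 3 leukocyte, 2 of 3 adipose, 2 of 8 skeletal muscle and 1 of 1 red cell markers. In bulk tissue, fewer cells of a type and less RNA per cell cannot be told apart.

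Over the 5 strains, 12 of the 100 member elements differed by limma's moderated F test at an adjusted p of at most 0.1, against 11.3% of all 11159 elements tested. The share of the members was thus close to that of the array. Without an adjustment, 24 members had a p under 0.05, which is 24% against 19.9% of all elements. The 12 elements stood for 11 genes: Erp44 with both of its spots, Hspb8, Canx, Cct6a, Hspe1, Cct7, Ssr3, Ppih, Ppib, Fkbp11 and Cct4. Their highest and lowest strain means were 1.31- to 2.46-fold apart, with a median of 1.49-fold, against 1.65-fold over all elements called. None of the 11 Hsp70, 13 Hsp90 and 21 J protein elements passed limma's F test, with 2, 2 and 1 of them at an unadjusted p under 0.05. The methods' multiclass test (SAM) called 1, 0 and 1 of these, Hspa5 and Dnajb6, and 9 members in all, against 10.6% of all elements. Of the 12 elements above, it left out 6, those of Cct7, Cct4, Ssr3, Ppih, Ppib and Fkbp11. Over all members, the median range of the strain means was 0.37 and the median SD between pools of a strain 0.24 on the log2 scale, against 0.32 and 0.22 for the whole array. With the 65 genes represented by 1 element each, 18 were highest in BALB/c, or 27.7% against 18% of all named genes, 17 were highest in FVB/NJ, or 26.2% against 19%, 23 were lowest in 129X1/SvJ, or 35.4% against 28.7%, and 17 were lowest in DBA/2, or 26.2% against 17%. Without 129X1/SvJ pool 4, 15 were highest in BALB/c, against 16.3% of all named genes, 16 highest in FVB/NJ, against 19.3%, and 19 lowest in DBA/2, against 17.9%. The 18 then lowest in 129X1/SvJ were 27.7% of the members, and the share of all named genes was 27.7% too.

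Each strain was then set against the mean of the other 4 by limma (adjusted p under 0.05). FVB/NJ held 3 members that were higher, against 1.22% of all elements, both spots of Erp44 and Hspb8, and 1 that was lower, against 1.34%, Cct6a. BALB/c held 2 that were higher, against 0.914%, Cct6a and Hspe1, and 0 that were lower, against 1.12%. DBA/2 held 3 that were lower, against 0.869%, Canx, Erp44 and Hspb8, and 0 that were higher, against 1.09%. C57BL/6J held 1 that was higher, against 1.77%, Hspb8, and 0 that were lower, against 1.44%. In 129X1/SvJ 1 member was higher, against 2.96%, Canx, and 3 were lower, against 2.74%, Erp44, Hspa5 and Cct8. With every array brought to one spread or quantile normalized, the 3 lower calls of 129X1/SvJ were lost and Canx remained, C57BL/6J gained Fkbp11 as lower, and DBA/2 held 6 or 7 lower members. For the 3 counts of 0, the members at an unadjusted p under 0.05 numbered 1 lower in BALB/c, 0 higher in DBA/2 and 4 lower in C57BL/6J.

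**Figure D1:**
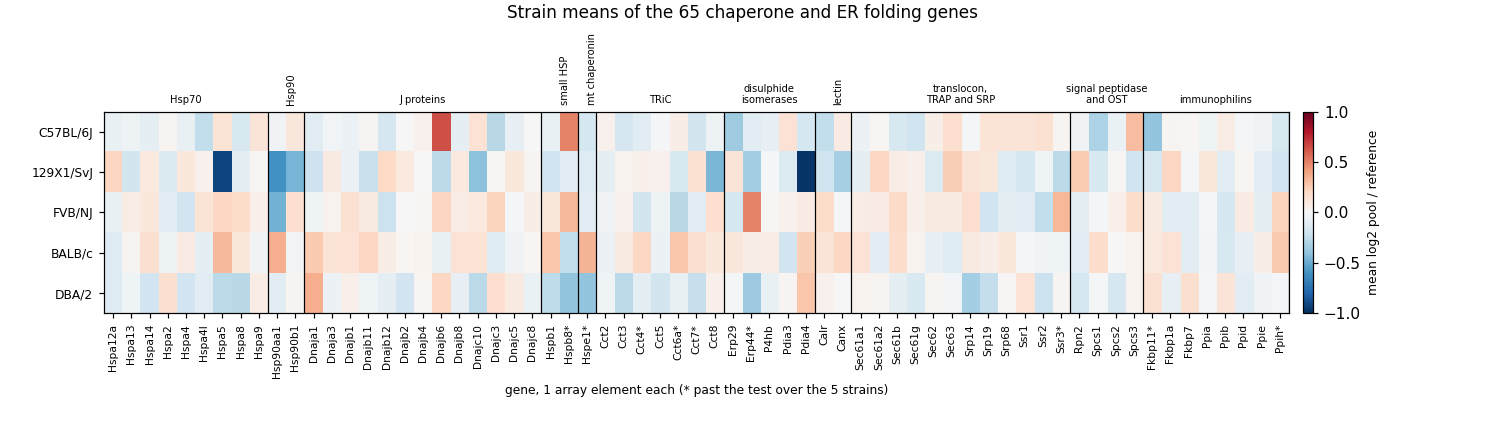
Mean log2 ratio of pool over reference (color, red above and blue below the reference) for each of the 65 genes (columns, grouped by role, 1 array element a gene) in the 5 strains (rows, 4 pools each). The darkest cells are Hspa5 and Pdia4 in 129X1/SvJ, with means of -0.92 and -0.98, and neither gene carries the asterisk of the test over the strains.

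Erp44, a thioredoxin-like protein that retains unfinished secretory proteins in the early secretory pathway, was higher in FVB/NJ on both of its spots. On the first spot it was also lower in DBA/2 and 129X1/SvJ. Its first spot (element 5919) read 0.33, 0.56, 0.64 and 0.45 in FVB/NJ pools 1 to 4, -0.37, -0.46, -0.29 and -0.34 in DBA/2, -0.23, -0.46, -0.35 and -0.32 in 129X1/SvJ, -0.33, 0.00, -0.07 and -0.04 in C57BL/6J, and -0.04, 0.18, 0.10 and 0.04 in BALB/c. All 4 FVB/NJ pools lay above all 16 others, and the DBA/2 and 129X1/SvJ pools overlapped each other. The FVB/NJ mean of 0.50 ± 0.13 (SD, n = 4) was 1.82-fold that of DBA/2, -0.36 ± 0.07 (limma F test, adjusted p = 1.84e-05). Against the mean of the other 4 strains, FVB/NJ was higher by 0.68 ± 0.08 (SE, limma, adjusted p = 1.40e-05), DBA/2 lower by 0.39 ± 0.08 (adjusted p = 0.0068) and 129X1/SvJ lower by 0.36 ± 0.08 (adjusted p = 0.008). A second spot of the same sequence, element 6111, was 1.72-fold higher in FVB/NJ than in DBA/2 (adjusted p = 0.0212), with FVB/NJ pools at 0.35, 0.11, 0.64 and 0.60 and 2 C57BL/6J pools and 1 BALB/c pool above the lowest of these. Its FVB/NJ call (0.57 ± 0.13, SE, adjusted p = 0.0152) was lost without FVB/NJ pool 3 (0.50) or pool 4 (0.52). On that spot the differences of DBA/2 (-0.41 ± 0.13, SE, limma, adjusted p = 0.131) and 129X1/SvJ (-0.19 ± 0.13, adjusted p = 0.431) were not called. The FVB/NJ difference of the first spot was 0.63 on the arrays with the pool in Cy3 and 0.74 on those with the pool in Cy5, and it held without any single pool. The lower value of 129X1/SvJ on the first spot was no longer called when every array was brought to one spread (-0.24). It was also lost with quantile normalization (-0.25), arrays weighted by precision (-0.37), the spots averaged (-0.28) or either dye alone. The lower value of DBA/2 was lost without DBA/2 pool 2 (-0.36) or with either dye alone. The other isomerases did not pass limma's F test, though SAM, the study's own test, called Pdia4: Erp29, a related protein without the isomerase activity, had an adjusted p of 0.131, Pdia4 (ERp72) of 0.234, Pdia3 (ERp57) of 0.505 and P4hb, the founding member, of 0.936. The P4hb strain means ran only from -0.08 to 0.07.

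Canx, the membrane-bound lectin chaperone, gave different answers from its 3 elements. Element 5799 read 0.51, 0.56, 0.41 and 0.89 in the 129X1/SvJ pools, -1.13, -0.42, -0.36 and -0.92 in DBA/2, -0.69, -0.08, -0.29 and -0.63 in FVB/NJ, -0.20, -0.14, 0.00 and -0.37 in BALB/c, and 0.25, -0.18, 0.30 and -0.25 in C57BL/6J. All 4 pools of 129X1/SvJ lay above all others, whereas the low values of DBA/2 and FVB/NJ overlapped. The 129X1/SvJ mean of 0.59 ± 0.21 was 2.46-fold the DBA/2 mean of -0.71 ± 0.38 (adjusted p = 7.02e-04). This was the widest range of strain means among the members. The difference of 129X1/SvJ from the other strains was 0.91 ± 0.15 (SE, adjusted p = 5.18e-04) and that of DBA/2 -0.71 ± 0.15 (adjusted p = 0.00885). The latter was lost without DBA/2 pool 1 (-0.57) or pool 4 (-0.64). On this element the pools also read 0.32 ± 0.09 higher in Cy5 than in Cy3 (adjusted p = 0.0246), and within a single dye 129X1/SvJ was still 0.98 (Cy3) and 0.84 (Cy5) above the rest. On the arrays in Cy5 alone the element did not pass over the strains (limma F test, adjusted p = 0.14). With arrays weighted by precision the difference of 129X1/SvJ, 0.82, was no longer called. Elements 3711 and 9781 did not pass (adjusted p = 0.567 and 0.62). On element 3711 the 129X1/SvJ mean was the lowest, -0.33 ± 0.64, with pool 4 at -1.25, and on element 9781 it was -0.01 ± 0.07. The values of elements 5799 and 3711 correlated at r = -0.49 over the 20 arrays, and with the elements averaged the adjusted p was 0.104. Which of the elements follows the Canx transcript was not tested. Calr, the soluble relative of calnexin, had strain means from -0.24 to 0.19 and overlapping pools (adjusted p = 0.573).

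Hspb8, a small heat shock protein that is abundant in muscle and acts with Bag3 in the removal of misfolded proteins, was higher in C57BL/6J and FVB/NJ and lower in DBA/2. The pools read 0.51, 0.61, 0.68 and 0.18 in C57BL/6J, 0.13, 0.38, 0.46 and 0.34 in FVB/NJ, -0.54, -0.41, -0.46 and -0.17 in DBA/2, -0.24, -0.38, -0.09 and -0.27 in BALB/c, and -0.05, -0.07, -0.27 and -0.05 in 129X1/SvJ. Every pool of C57BL/6J and FVB/NJ lay above every pool of the other 3 strains, and those 2 strains overlapped each other. The C57BL/6J mean of 0.50 ± 0.22 was 1.85-fold the DBA/2 mean of -0.39 ± 0.16 (adjusted p = 8.07e-05). C57BL/6J was above the mean of the others by 0.60 ± 0.09 (SE, adjusted p = 5.18e-04), FVB/NJ by 0.39 ± 0.09 (adjusted p = 0.0279), and DBA/2 was below it by 0.51 ± 0.09 (adjusted p = 0.00351). The FVB/NJ call was lost without FVB/NJ pool 2 (0.37), pool 3 (0.35) or pool 4 (0.39). The mean over the smooth muscle list lay between -0.18 and -0.03 in the C57BL/6J pools, between -0.18 and 0.23 in FVB/NJ and between 0.04 and 0.26 in DBA/2. That over the skeletal muscle list lay between -0.46 and 0.24, -0.27 and 0.16, and -0.01 and 0.45 in the same strains, and the part of muscle in the values of Hspb8 was not tested. Hspb1 (Hsp25), the other small heat shock protein measured, was on 2 repeated spots that did not pass (adjusted p = 0.19 and 0.236). Both had their highest mean in BALB/c and their lowest in DBA/2, with DBA/2 pools from -0.48 to 0.03.

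Hspe1 (Hsp10), the lid of the mitochondrial Hsp60 chaperonin and a gene with the heat shock element shown above, was higher in BALB/c. It read 0.24, 0.24, 0.31 and 0.56 in the BALB/c pools, -0.33, -0.36, -0.68 and -0.21 in DBA/2, -0.39, -0.13, -0.09 and -0.09 in C57BL/6J, -0.46, -0.25, 0.12 and 0.09 in 129X1/SvJ and 0.01, -0.02, -0.49 and 0.07 in FVB/NJ. The BALB/c pools lay above the other 16, which overlapped. The BALB/c mean of 0.34 ± 0.15 was 1.67-fold the DBA/2 mean of -0.40 ± 0.20 (adjusted p = 0.0311, and 0.125 without BALB/c pool 4). BALB/c stood 0.54 ± 0.12 (SE) above the mean of the others (adjusted p = 0.0163), a call that was lost without BALB/c pool 3 (0.55) or pool 4 (0.47). The mean over the seminal vesicle list was also highest in these pools, as given above. Of its genes, Svs2, Svs4, Svs5 and Pate4 had their highest mean in BALB/c, but Svs1, Svs3b and Svs6 did not. The part of seminal vesicle transcripts in the values of Hspe1 was not tested.

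The Cct genes encode subunits of TRiC, the ring-shaped chaperonin that folds actin and tubulin. Of 9 elements for 7 subunits 3 passed, Cct6a, Cct7 and Cct4, against 11.3% of all elements. All 3 had their highest mean in BALB/c, as did 5 of the 9, against 16.8% of all elements. Cct8 was highest in FVB/NJ and both Cct2 elements in C57BL/6J. With 9 elements these shares are not read as a trait of the group. Cct6a (element 2690) read 0.46, 0.09, 0.18 and 0.38 in the BALB/c pools and -0.17, -0.41, -0.36 and -0.17 in the FVB/NJ pools. The pools of BALB/c and FVB/NJ did not overlap each other, but C57BL/6J pools, at 0.01 to 0.14, reached into the BALB/c range. The BALB/c mean of 0.28 ± 0.17 was 1.47-fold the FVB/NJ mean of -0.28 ± 0.12 (adjusted p = 0.0067). BALB/c was above the mean of the other strains by 0.38 ± 0.08 (SE, adjusted p = 0.00924) and FVB/NJ below it by 0.31 ± 0.08 (adjusted p = 0.0382). The BALB/c call was lost without BALB/c pool 1 (0.32) or pool 4 (0.35). The FVB/NJ call was lost without any one of 11 pools, C57BL/6J pools 1, 3 and 4, FVB/NJ pools 1 to 4, BALB/c pool 4 and DBA/2 pools 1, 2 and 4, with differences from -0.35 to -0.27. A second Cct6a element, 10187, was also highest in BALB/c but did not pass (adjusted p = 0.401). Cct7 read 0.40, 0.15, 0.02 and 0.08 in BALB/c, 0.11, 0.23, 0.02 and 0.27 in 129X1/SvJ and -0.17, -0.45, -0.25 and -0.04 in DBA/2, with BALB/c and DBA/2 1.31-fold apart (adjusted p = 0.0626). The pools of 129X1/SvJ and BALB/c overlapped on Cct7. Cct4 read 0.44, 0.15, 0.12 and 0.11 in BALB/c and -0.22, -0.13, -0.23 and -0.15 in FVB/NJ, also 1.31-fold apart (adjusted p = 0.0916). On Cct4 the 129X1/SvJ pools, at -0.20, 0.12, 0.10 and 0.18, overlapped BALB/c, and pools of C57BL/6J and DBA/2 lay within the FVB/NJ range. Cct7 was lost without C57BL/6J pool 1 or 3, BALB/c pool 1 or 2 or DBA/2 pool 2 or 3 (adjusted p from 0.105 to 0.119). Cct4 held only without 129X1/SvJ pool 1 or 4 or DBA/2 pool 1, and reached 0.244 without BALB/c pool 1. Cct8 did not pass over the 5 strains (adjusted p = 0.135). In 129X1/SvJ, where its pools read -0.59, 0.00, -0.90 and -0.34, it was 0.52 ± 0.14 (SE) below the mean of the others (adjusted p = 0.0327), a call that was lost without pool 1 (-0.48) or pool 3 (-0.38) and when every array was brought to one spread (-0.38). Cct2, Cct3 and Cct5 had adjusted p from 0.474 to 0.949.

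**Figure D2:**
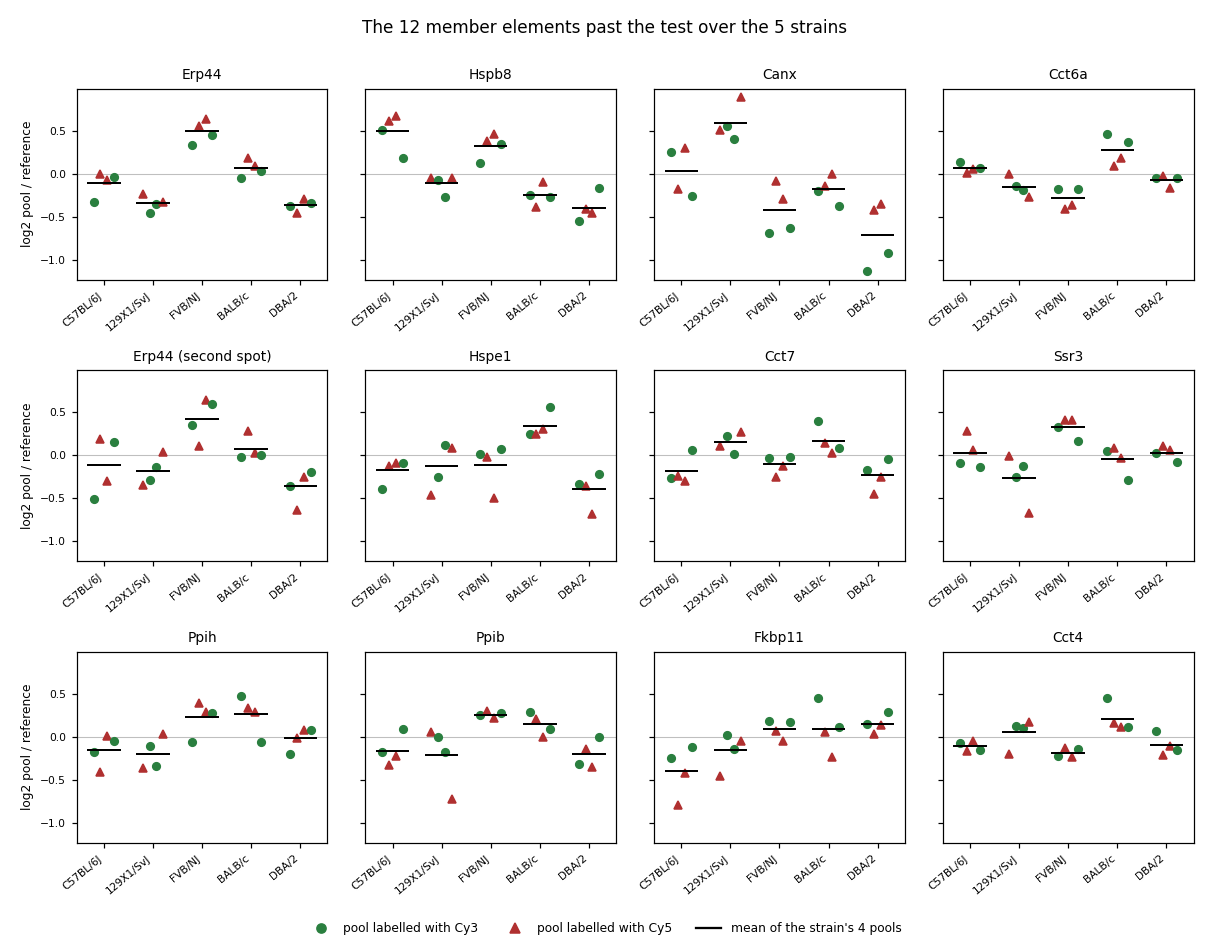
Log2 ratio of pool over reference (vertical axis) in the 4 pools of each strain (horizontal axis) for the 12 member elements past the test over the strains, in order of p. Circles are pools labelled with Cy3, triangles pools labelled with Cy5, and lines the means of the 4 pools. The FVB/NJ pools of the first Erp44 spot, at 0.33 to 0.64, the 129X1/SvJ pools of Canx, at 0.41 to 0.89, and the BALB/c pools of Hspe1, at 0.24 to 0.56, lie clear of all others in their panels.

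Entry into the ER was represented by 16 elements for the translocon, the translocon-associated proteins (Ssr) and the signal recognition particle (Srp). Of these 1 passed, against 11.3% of all elements. Ssr3, the gamma subunit of the translocon-associated complex, read 0.33, 0.41, 0.41 and 0.17 in FVB/NJ and -0.01, -0.25, -0.12 and -0.67 in 129X1/SvJ. The groups did not overlap, although C57BL/6J pool 2, at 0.28, lay within the FVB/NJ range. The difference was 1.51-fold (adjusted p = 0.0682), and the call was lost without 129X1/SvJ pool 2 or FVB/NJ pool 1, 2 or 3 (adjusted p up to 0.162). The channel subunits Sec61a1, on 3 elements, and Sec61b had adjusted p of 0.513 to 0.839 and of 0.359, and the strain means of Sec61a1 spanned at most 0.25. Srp14, which is chosen here after its values were seen, did not pass (adjusted p = 0.156), but its DBA/2 pools, at -0.36, -0.47, -0.32 and -0.21, lay below the other 16. Of the 5 elements for signal peptidase and oligosaccharyltransferase none passed limma's F test or SAM, 1 had an unadjusted p under 0.05, and analysis of variance without moderation called 1. Spcs1 came nearest (element 3546, adjusted p = 0.213), with C57BL/6J pools from -0.42 to -0.23 and BALB/c pools from -0.01 to 0.49.

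Immunophilins speed up the rotation of proline bonds, and 3 of their 11 elements passed, against 11.3% of all elements. Ppih, a cyclophilin of the spliceosome, read 0.48, 0.33, 0.28 and -0.06 in BALB/c, -0.06, 0.39, 0.29 and 0.28 in FVB/NJ, and -0.37, -0.11, -0.34 and 0.04 in 129X1/SvJ (1.37-fold, adjusted p = 0.0799). BALB/c and FVB/NJ covered much the same range, and in each of them 1 pool lay within that of 129X1/SvJ. Ppib, the cyclophilin of the ER, read 0.25, 0.30, 0.22 and 0.27 in FVB/NJ and 0.05, 0.00, -0.17 and -0.72 in 129X1/SvJ on element 5429 (1.38-fold, adjusted p = 0.082). The DBA/2 mean of -0.20 and the C57BL/6J mean of -0.16 were close to the 129X1/SvJ mean of -0.21, and BALB/c pools 1 and 2 read 0.29 and 0.21. Without 129X1/SvJ pool 4 the lowest mean was that of DBA/2 (limma F test, adjusted p = 0.0191). The other Ppib element, 5068, had its lowest mean in FVB/NJ, -0.16 ± 0.14, and did not pass (adjusted p = 0.566). Elements 5429 and 5068 correlated at r = -0.51, and with them averaged the adjusted p was 0.629 (limma F test). Which of them follows the Ppib transcript was not tested. Fkbp11, an ER prolyl isomerase of secretory tissues, read -0.25, -0.79, -0.43 and -0.12 in C57BL/6J and 0.15, 0.03, 0.14 and 0.29 in DBA/2 (1.46-fold, adjusted p = 0.0867), and on it pools in Cy5 were 0.26 ± 0.08 lower than in Cy3 (adjusted p = 0.0268). These calls were thin. Ppih was lost without C57BL/6J pool 1 or 2, 129X1/SvJ pool 1 or 3, FVB/NJ pool 2, 3 or 4, BALB/c pool 1, 2 or 3 or DBA/2 pool 2 or 3 (adjusted p from 0.105 to 0.157). Ppib was lost without C57BL/6J pool 1, 2 or 3, any FVB/NJ pool, BALB/c pool 1, 2 or 4 or DBA/2 pool 1, 2 or 3 (0.116 to 0.156). Fkbp11 was lost without C57BL/6J pool 1, 2 or 3, FVB/NJ pool 1, 2 or 4, BALB/c pool 2 or 4 or any DBA/2 pool (0.111 to 0.241). The most abundant cytosolic cyclophilin, Ppia, varied little on its 3 elements, with strain means from -0.12 to 0.10 (adjusted p from 0.716 to 0.938).

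Hspa5 (BiP), the ER Hsp70, did not pass over the 5 strains (adjusted p = 0.15), yet its value in 129X1/SvJ was 1.01 ± 0.29 (SE) below the mean of the others (adjusted p = 0.0473). The 129X1/SvJ pools read -0.23, -0.74, -0.22 and -2.48, those of C57BL/6J -0.24, 0.13, 0.88 and -0.23, of FVB/NJ 0.31, 0.46, 0.25 and -0.18, of BALB/c 0.15, 0.27, 0.76 and 0.12, and of DBA/2 -0.66, 0.04, -0.04 and -0.42. Pool 4 of 129X1/SvJ alone lay far below the rest, and its other 3 pools overlapped DBA/2 and C57BL/6J. Without that pool the difference was -0.49 ± 0.21 (adjusted p = 0.158), and with every array brought to one spread it was -0.61 and no longer called. The call was also lost without any one of 15 other pools (-1.07 to -0.95) and held only without C57BL/6J pool 4, 129X1/SvJ pool 1 or 3, or FVB/NJ pool 4. Hspa8 (Hsc70), the constitutive cytosolic form, came next (adjusted p = 0.16). Its FVB/NJ pools read 0.19, 0.12, 0.08 and 0.35, and its DBA/2 pools, at -0.34, -0.32, -0.25 and -0.20, lay below them all. Hspa9 (mortalin), the mitochondrial Hsp70, had 2 elements with adjusted p of 0.67 and 0.934. The remaining Hsp70 members, Hspa2, Hspa4, Hspa4l, Hspa12a, Hspa13 and Hspa14, had adjusted p from 0.277 to 0.934.

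Several well-known chaperones, Pdia6, Hsp90ab1, Hspa1a, Hspa1b, Hspd1, Rpn1, Fkbp4 and Fkbp5, were on no element with a single symbol and were not analysed here. Hsp90aa1, the stress-inducible cytosolic Hsp90, was on 12 elements, more than any other member, and none passed (adjusted p from 0.198 to 0.833). The mean of 129X1/SvJ was the lowest of the 5 strains on all 12, by 0.14 to 0.80 against the mean of the others, and that of BALB/c was the highest on 11. Elements 3397, 3589, 4124, 4316, 7012, 7204, 9900 and 10092 are annotated to one sequence, and 9171 and 9363 to another. These counts thus hold repeated spots on the same arrays and not 12 separate readings. The elements fell into 2 kinds. On 5 of them (3397, 3589, 9171, 9363 and 10938), 129X1/SvJ pool 4 read -3.41 to -2.71, while the strain's other pools read -0.11 to 0.48. On the other 7 that pool read -1.15 to -0.33. The 2 kinds split one sequence, since 3397 and 3589 are annotated to the same one as 4124, 4316, 7012, 7204, 9900 and 10092. On elements 3397, 3589, 9171 and 9363, which are 2 pairs of repeated spots, FVB/NJ pools 2 and 3 were low as well, at -0.84 to -0.58 and -1.23 to -0.98, while FVB/NJ pool 1 read 0.19 to 0.68. Without 129X1/SvJ pool 4, the strain was lowest on 3 of the 12 elements, DBA/2 on 5 and FVB/NJ on 4, BALB/c was still highest on 11, and 1 element passed (3397, adjusted p = 0.0936). The pairs of elements correlated with a median r of 0.73 over the 20 arrays, from -0.02 to 0.99. Element 6239, which gave the weakest correlations, read higher in Cy5 than in Cy3 by 0.44 ± 0.11 (SE, adjusted p = 0.0155). Hsp90b1 (GRP94), the ER form, had its lowest mean in 129X1/SvJ too, -0.47 ± 0.35 (adjusted p = 0.305). Its 129X1/SvJ pools read -0.19, -0.97, -0.34 and -0.37, so that here pool 2 and not pool 4 was the lowest.

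**Figure D3:**
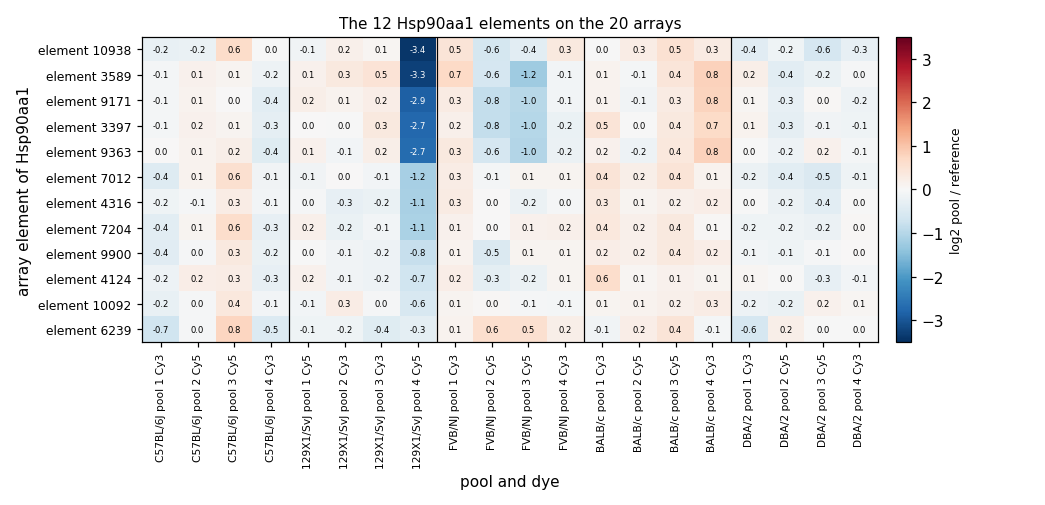
Log2 ratio of pool over reference (color and printed value) of the 12 Hsp90aa1 elements (rows, ordered by 129X1/SvJ pool 4) on the 20 arrays (columns, with strain, pool and dye). The 5 upper elements hold values of -3.41 to -2.71 in 129X1/SvJ pool 4, and 4 of them are also low in FVB/NJ pools 2 and 3.

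The low values of 129X1/SvJ pool 4 reached beyond these genes. On that array 15 of the 100 member elements lay at or below -1, or 15% against 5.71% of all elements on it, and on no other array did more than 2 members. The 15 elements stood for 7 genes: Hsp90aa1 with 8 elements, Dnajc10 with 2, and Pdia4, Hspa9, Hspa5, Canx (element 3711) and Hspa4l with 1 each. Pdia4 read -2.95 there and -0.53 to -0.02 in the strain's other pools. Hspa9 element 7544 read -2.78 against -0.11 to 0.42, but its other element, 3495, read -0.23 in the same pool. Dnajc10 (ERdj5), a J protein and reductase of the ER, read -1.93 on element 6571. Other members lay on the opposite side: Rpn2, an oligosaccharyltransferase subunit, read 1.15 and Dnajc3 1.16. Of the cell type lists, the fibroblast and matrix list (-0.65) and the smooth muscle list (-0.50) were at their lowest value of all arrays in this pool, while the luminal list read 0.18 and the adipose list 0.44. The lists of ER quality control genes (-0.15) and of co-chaperones (-0.33) outside the symbol rule were at their lowest there as well. These are the values that moved with it, and their part in the low readings was not tested. Since pools are single arrays, the mice of that pool and its hybridization cannot be told apart. Without this array, 15 members passed over the strains against 15.7% of all elements, all 12 earlier ones among them, and Dnajc10 (2 elements, adjusted p = 0.0774 and 0.0886) was added with its lowest mean in DBA/2 next to the Hsp90aa1 element named above.

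**Figure D4:**
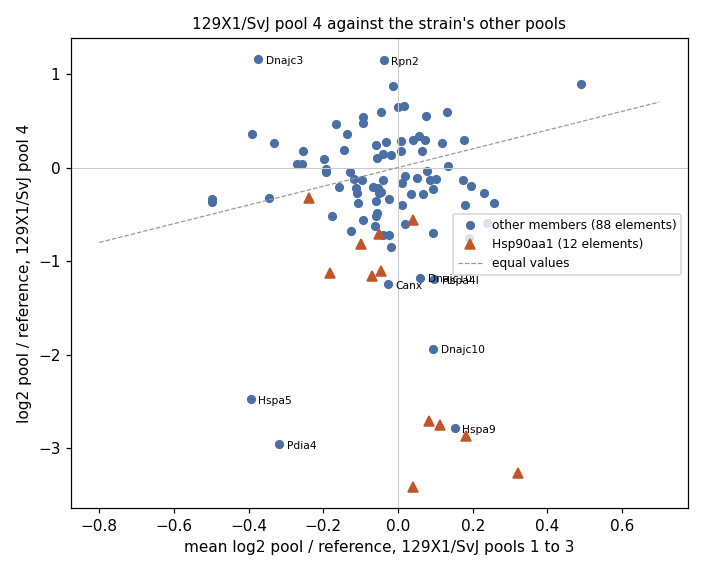
Value of each member element in 129X1/SvJ pool 4 (vertical axis) against its mean in the strain's pools 1 to 3 (horizontal axis), both as log2 pool over reference. Triangles are the 12 Hsp90aa1 elements, circles the other members, and the dashed line marks equal values. Hsp90aa1, Hspa5, Pdia4 and Hspa9 hold the points at or below -2, while their other pools average -0.39 to 0.32.

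The 5 genes whose windows match the ER stress response element did not share one order of strains. Hspa5 and Hsp90b1 had their lowest mean in 129X1/SvJ, Calr and Dnajc3 in C57BL/6J, and Canx in DBA/2, 129X1/SvJ or BALB/c, depending on the element. Dnajc3 (p58IPK), an inhibitor of the ER stress kinase Eif2ak3 and an ER J protein, split by dye in 129X1/SvJ, with 1.45 and 1.16 in the Cy5 pools 1 and 4 and -1.49 and -1.08 in the Cy3 pools 2 and 3. In FVB/NJ its pools read 0.10 to 0.32. Its SD between pools of a strain was 0.77, and only Hsp90aa1 elements 3589 (0.91) and 10938 (0.84) varied more among the members. Over all arrays its adjusted p was 0.941 for the strains and 0.714 for the dye.

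**Figure D5:**
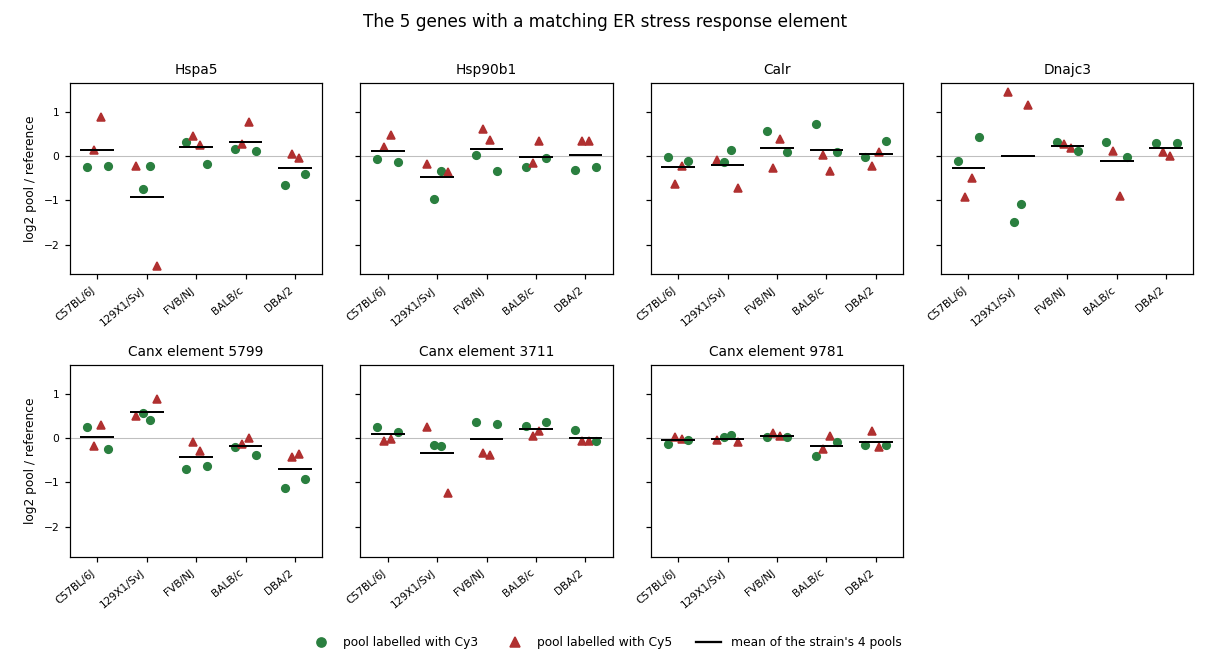
Log2 ratio of pool over reference (vertical axis) in the 4 pools of each strain (horizontal axis) for the 5 genes whose promoter windows match the ER stress response element, Canx on each of its 3 elements. Circles are pools in Cy3, triangles pools in Cy5 and lines the means. Element 5799 of Canx has its highest mean (0.59) in the strain in which Hspa5 and Hsp90b1 have their lowest (-0.92 and -0.47). Canx element 3711 has its lowest mean in that strain too. The Hspa5 mean holds pool 4 at -2.48, and neither Hspa5 nor Hsp90b1 passed the F test over the strains.

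J proteins were the largest family, with 21 elements for 13 genes, and none passed limma's F test over the strains. The smallest p belonged to Dnajb6, a suppressor of protein aggregation (adjusted p = 0.196), which SAM called. Its C57BL/6J pools read 0.76, 1.00, 0.54 and 0.28, and its 129X1/SvJ pools 0.86, -0.71, -0.68 and -0.52, so that 1 pool of the latter was as high as the former. Dnajb11 (ERdj3) had an adjusted p of 0.442. Dnajb1, Dnajb2, Dnajb4, Dnajb8, Dnajb12, Dnaja1, Dnaja3, Dnajc5 and Dnajc8 lay between 0.59 and 1.00.

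Several members moved with the dye. With strain in the model, 19 of 100 member elements differed between pools labelled with Cy5 and with Cy3 at an adjusted p under 0.05, against 15.9% of all elements. The largest differences were those of Ppie, a spliceosomal cyclophilin, at -0.64 ± 0.11 (SE), Hsp90b1 at 0.47 ± 0.09, Dnajc8 at -0.45 ± 0.09, Hsp90aa1 element 6239 at 0.44 ± 0.11 and Sec63 at 0.42 ± 0.10. Ppie read -0.89 to 0.06 in the pools labelled with Cy5 and -0.05 to 0.43 in those labelled with Cy3, and had an adjusted p of 0.994 for the strains. Each strain held 2 arrays of either orientation, so that the dye does not enter the strain means. With dye as a term, 17 members passed over the strains, against 15.6% of all elements.

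Correlations between the members were read after strain and dye were removed. The median correlation between the 64 member genes with complete values was -0.01 over the 20 arrays, and that between all 10729 complete elements was -0.00. A median near 0 can hold strong correlations of both signs, so it does not show how far members moved together. Within families the medians ran from -0.18 (signal peptidase and oligosaccharyltransferase) to 0.01 (translocon, Ssr and Srp). The members most like Hspa5 by correlation were Hsp90aa1 (r = 0.91), Dnajc10 (0.90), Pdia4 (0.88) and Dnajb11 (0.86). Sec61a2 (-0.82) and P4hb (-0.71) lay at the other end. Hsp90aa1, Dnajc10 and Pdia4 read at or below -1 in 129X1/SvJ pool 4, and Dnajb11 did not. Without that array Hsp90aa1, Dnajc10, Pdia4 and Dnajb11 stood at 0.52, 0.27, 0.38 and 0.61. Sec61a2 and P4hb then stood at -0.28 and 0.09, and Hsp90b1 at 0.71 instead of 0.48. The points share arrays, so these are descriptions.

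Partners of the chaperones outside the symbol rule were read from 2 lists, which like the members were chosen with earlier results of these data known. Of 41 measured genes of the unfolded protein response, ER-associated degradation and other ER quality control, 13 passed over the 5 strains, against 11.3% of all elements tested and 12.5% of the named genes. Creb3l4, an ER membrane-bound transcription factor known from prostate, ranged over 3.19-fold, from a mean of 0.84 in C57BL/6J to -0.83 in FVB/NJ (adjusted p = 4.39e-06). Kdelr3, the receptor that returns escaped ER chaperones, ranged over 1.83-fold between BALB/c and 129X1/SvJ (adjusted p = 2.11e-04). Asns, an asparagine synthetase induced under ER and amino acid stress, ranged over 2.02-fold between BALB/c and FVB/NJ (adjusted p = 7.80e-04). Sec11c, a catalytic subunit of signal peptidase, was lowest in FVB/NJ at -0.80, with the other strains between -0.14 and 0.16 (adjusted p = 0.00344). The remaining 9 were Uggt1, which tags incompletely folded glycoproteins, the ubiquitin ligase Syvn1, Tram1, the oxidase Ero1b, the cargo adaptor Mcfd2, Tusc3, Bcap31, Creb3 and Rcn1, with ranges of 1.33- to 2.00-fold. Of the 13, 6 had their highest mean in BALB/c, 4 in C57BL/6J and 1 each in the other strains. The mean over the 41 genes lay between 0.06 and 0.16 in the BALB/c pools and at or below 0.06 in every other pool. The lowest BALB/c pool was thus just above the highest C57BL/6J pool. The mean over the seminal vesicle list was highest in the BALB/c pools as well, though its genes Svs1, Svs3b and Svs6 were not. The part of seminal vesicle transcripts in the values of the 41 genes was not tested. Of 22 measured co-chaperones and folding cofactors, 3 passed. Clu (clusterin), an extracellular chaperone, stood at 1.48 in FVB/NJ and between -1.23 and -0.76 in the other strains, 6.54-fold apart (adjusted p = 8.05e-04). Hsph1 (Hsp110), which recharges Hsp70, ranged over 1.85-fold between BALB/c and DBA/2 (adjusted p = 0.0458), and Trap1, the mitochondrial Hsp90, over 1.41-fold between BALB/c and 129X1/SvJ (adjusted p = 0.0186).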

How the data were processed

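Prostate RNA of 5 strains (4 pools each) was hybridized with a common reference to 20 arrays, the pool in Cy3 on 2 and in Cy5 on 2 arrays of each strain. The deposited values are log2 ratios of pool over reference. Per the labels and the methods, the authors read intensities with GenePix Pro, subtracted the median background, set spots not above background to missing and normalized by print-tip loess. Direction follows the methods and was not checked on intensities, which were not used here. Probes were named through the platform annotation: 8050 elements had 1 symbol, 672 several, and 2830 were not in it. Depth has no counterpart on arrays, and the 4 pools of a strain limit the precision.

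An element entered the tests if no more than 3 values were missing and every strain kept 2 or more (11159 of 11552; 2.89% of values were missing and none was imputed). limma 3.58.1 in R 4.3.3 gave a moderated F test over the strains (called at an adjusted p of at most 0.1), a test of each strain against the mean of the other 4 and a test of dye with strain in the model (both at an adjusted p under 0.05). Benjamini-Hochberg adjustment ran over all elements tested. Where a gene had several elements, the one with the fewest missing values and then the lowest number represented it. Scripts were tested on simulated data. Promoter windows came from RefSeq (GRCm38.p6). The build of the array annotation is not given in the sources used here.

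The members and lists were chosen with earlier results of these data known. Elements named are those past a test, the best of each role, a set of well-known chaperones, and the 5 with the largest dye difference and the 5 with the largest SD. Alternatives were other limits on missing values, scaling, quantile normalization, dye or pool number in the model, array weights, averaging by gene, robust moderation, unmoderated analysis of variance, SAM, and each pool left out. The arrays of a single dye were chosen as alternatives after seeing the data. Pool numbers were not taken to pair the samples. The pools hold separate mice, and p-values measure the spread between pools.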

Additional observations from a re-analysis of the deposited data

Results flagged for a closer look

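In 26 of the 245 groups of 4 pools behind the elements named here, or 10.6%, the highest or lowest pool lay further from the other 3 than Dixon's critical ratio allows. That ratio is set for about 1 group in 20 when groups are taken without regard to their values. Some elements here were named for a large SD, and 12 are of Hsp90aa1, so that rate is no standard for them. No rate over the whole array was taken. Of the 26 groups, 7 were 129X1/SvJ pool 4, with log2 ratios of -2.75, -3.26, -1.15, -2.86, -2.71 and -3.41 on Hsp90aa1 elements 3397, 3589, 7012, 9171, 9363 and 10938 and of -2.78 on Hspa9 element 7544. Low single pools were also C57BL/6J pool 2 for Pdia4 (-0.61), C57BL/6J pool 1 for Hspe1 (-0.39), 129X1/SvJ pool 3 for Spcs1 (-0.44) and for Hspb8 (-0.27), FVB/NJ pool 3 for Hspe1 (-0.49) and for Ppia element 2252 (-0.19), FVB/NJ pool 2 for Hsp90aa1 element 9900 (-0.50), BALB/c pool 2 for Ppia element 6517 (-0.089) and DBA/2 pool 3 for Cct6a (-0.17). High single pools were 129X1/SvJ pool 1 for Dnajb6 (0.86), C57BL/6J pool 4 for Cct7 (0.065), FVB/NJ pool 2 for Canx element 9781 (0.13) and DBA/2 pool 2 for the same element (0.16), and DBA/2 pool 1 for P4hb (0.20) and for Canx element 3711 (0.18). In BALB/c these were pool 4 for Pdia4 (0.45) and pool 1 for Hsp90aa1 element 4124 (0.61), Cct4 (0.44) and Sec61a1 element 3388 (0.44). Of the 12 elements past the test over the strains, Hspb8, Hspe1, Cct6a, Cct7 and Cct4 held such a pool.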

How the results depend on the processing

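Of the 12 member elements past the test over the strains, Erp44 (both spots), Hspb8, Canx element 5799 and Cct6a stayed past it without any single pool, and the other 7 were lost without 1 or more pools. With 1 pool left out in turn, the number past ran from 7 to 16 of 100, while 9.21% to 15.7% of all elements passed. The full data gave 12, against 11.3%. The members apart from the other strains ran from 1 to 3 in C57BL/6J, 3 to 7 in 129X1/SvJ, 1 to 6 in FVB/NJ, 2 to 4 in DBA/2 and 0 to 3 in BALB/c, where the full data gave 1, 4, 4, 3 and 2. Members past the test of the dye ran from 15 to 23. C57BL/6J held 2 members, not 1, with no missing values allowed, with every array brought to one spread, with quantile normalization, with dye as a term, with elements averaged by gene and with robust moderation. This scaling left 1 member in 129X1/SvJ and gave 6 in DBA/2, quantile normalization 1 and 7, and dye as a term 7 in 129X1/SvJ. Weighting the arrays by precision gave 21 members over the strains, against 17.3% of all elements. It gave 3 in C57BL/6J, 4 in BALB/c, 12 in DBA/2 and by limma 0 in 129X1/SvJ, where 6 had an unadjusted p under 0.05. Only the arrays in Cy3 gave 7 over the strains, against 7.09% of all elements, 1 in FVB/NJ, 1 in DBA/2 and by limma 0 in C57BL/6J and BALB/c, where 17 and 16 had an unadjusted p under 0.05. Only the arrays in Cy5 gave 3 over the strains, against 2.69% of all elements, 2 in 129X1/SvJ, 1 in FVB/NJ and by limma 0 in BALB/c and DBA/2, where 7 and 10 had an unadjusted p under 0.05. These hold fewer arrays. The cause of the other changes was not tested. The counts for single strains stand here without the shares of all elements, so they are not read as a trait of the members. SAM called 9 members, against 10.6% of all elements, 6 of the 12 and besides these Pdia4, Hspa5 and Dnajb6. Analysis of variance without moderation called 12, against 11.4%. No call turned its direction.

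The pool number as a replicate block gave 10 members over the strains, against 12.9% of all elements. It gave 2 in C57BL/6J, 4 in 129X1/SvJ, 5 in FVB/NJ, 2 in BALB/c and 3 in DBA/2, and Ppih, Ppib and Cct4 (adjusted p = 0.103, 0.109 and 0.122) and Cct8 in 129X1/SvJ were no longer called. Same-numbered pools of different strains correlated with a median r of 0.18, with 23 of 40 pairs over 0.1. Within a dye, the median was 0.27 for the same number (22 of 24 pairs over 0.1) and 0.18 for different numbers (39 of 56). The pools were not treated as paired in the main tests, because not every pair was over 0.1. That rule does not show that same-numbered pools were independent, so the results with the block stand beside the main ones.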
